A study of Homo sapiens with 6 samples.

Results

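Glycolysis splits glucose into pyruvate in the cytosol, and paired isozymes at several steps let cells tune it. Pyruvate is then either reduced to lactate and exported with a proton, or oxidised inside mitochondria by the pyruvate dehydrogenase complex. Kinases (PDK) switch this complex off and phosphatases (PDP) switch it on. The pentose phosphate pathway branches off at glucose 6-phosphate, yielding NADPH through its oxidative steps and ribose 5-phosphate for nucleotides. The 40 genes described here belong to these routes. They were taken by gene symbol from the count files, in which all 40 were found among 38986 symbols, and 38 of them passed the filter on low counts, among 12938 genes in all that did.

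The study compared 3 RNA-seq libraries labelled as 293T cells overexpressing wild-type STAT6 with 3 labelled Mock, whose genotype label is WT. Both groups are described as mCherry-positive cells of this human embryonic kidney line, grown in DMEM with fetal bovine serum, and the stated aim was to ask what STAT6 does to mitochondrial gene expression. The sources used here do not give the expression vector, its promoter or the time after its introduction. Nor do they say whether numbered libraries are separate cultures: every p-value below therefore refers to library-to-library spread, possibly technical. Polyadenylated RNA was sequenced, and library totals ran from 19894773 to 29802693 counts.

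The files do not match these labels. They hold mouse gene symbols, and the targeted gene Stat6 went the other way from its label, at 35.1, 33.6 and 32.1 CPM (counts scaled to a common library size) in the libraries labelled STAT6 and 95.2, 95.5 and 92.8 CPM in those labelled Mock (log2 fold change -1.49, SE 0.04, adjusted p = 7.47e-26). Of 6 markers of embryonic kidney and renal epithelium, Pax8 and Six2 had no count in any library and 5 stayed under 1 CPM in every library; the exception, Lhx1, had 198 counts in the STAT6-labelled group and 0 in Mock. All 8 pigment cell markers were present, summing to 17009 to 17158 CPM in the libraries labelled STAT6 and 14667 to 15019 CPM in Mock. Of these, 5 were higher (Dct 0.54 and Sox10 0.53 in log2 fold change), 2 were lower and 1 was not past the threshold; Tyr, the melanin-forming tyrosinase, was lower at 29.1 against 303 CPM (-3.38), and Pmel at -0.06. Summed markers of other cell types were low but also differed: 5 fibroblast markers gave 78.5 to 84.9 against 18.7 to 20.7 CPM (Col1a1 at 4.02 and Col1a2 at -2.64 in log2 fold change, Dcn and Lum each with at most 1 count in a library), 5 macrophage markers 3.63 to 4.12 against 1.12 to 1.39 CPM, 4 keratinocyte markers 3.50 to 4.85 against 1.01 to 2.63 CPM, and 4 endothelial markers 0.588 to 1.03 against 0 to 0.262 CPM. Cd68 and Lyz2 made up nearly all of the macrophage sum, Krt14 and Krt5 of the keratinocyte sum, and Pecam1 most of the endothelial sum. Adgre1, Krt10 and Cdh5 had no count in any library, Ptprc and Csf1r at most 2 in a library and Trp63 at most 3. The part of these marker differences in the results below was not tested. Direction below follows the labels alone: "rose" and "higher" mean higher in the libraries labelled STAT6, where Stat6 itself was lower. In bulk RNA, a change in the number of cells of a type cannot be told apart from a change in RNA per cell.

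Most of the pathway moved, in both directions and mostly by small amounts. Of the 38 tested genes 13 rose, 22 fell and 3 did not pass the threshold (adjusted p of 0.05, edgeR quasi-likelihood test); across all genes tested 72.6% passed, 35.8% as higher and 36.8% as lower. Their median log2 fold change was -0.19, beside -0.00 over all genes tested. The 38 had a median of 2111 counts per library against 604 for all genes tested, so smaller changes could be resolved in them. The groups did not overlap in 33 of the 38, where 74.6% of all genes tested did not overlap. As a share of all counts, the 40 genes together took 1.06%, 1.04% and 1.05% of the libraries labelled STAT6 and 1.23%, 1.21% and 1.25% of those labelled Mock. A test for a change beyond 1.5-fold called 7 of the 38, against 21.5% of all genes. Hk1, Eno2 and Pdk2 were higher and Slc16a1, Slc2a1, Pfkfb4 and Aldoc lower. Aldoc passed the filter only through its Mock counts, so a difference was built into its being tested.

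**Figure D1:**
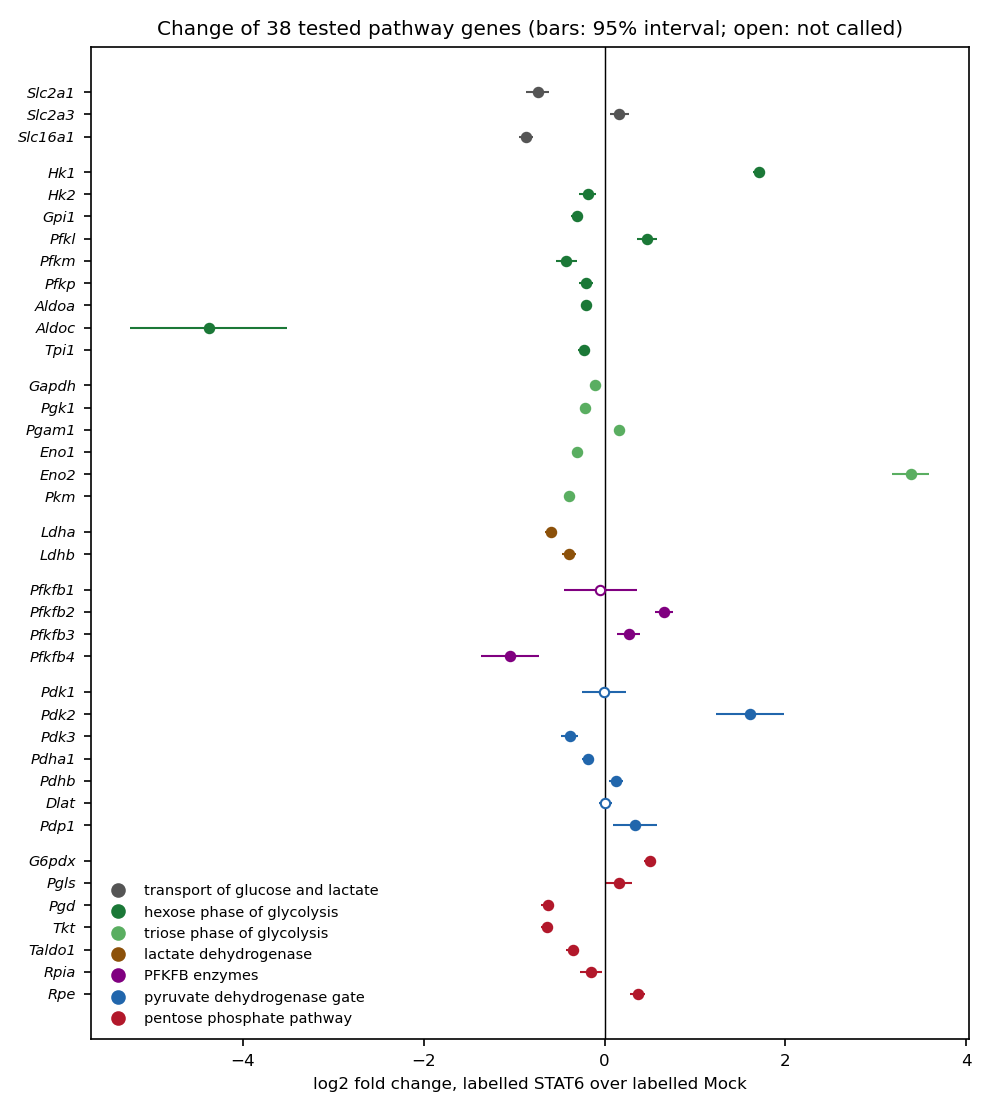
Log2 fold change (horizontal axis, libraries labelled STAT6 over Mock) of the 38 tested genes, grouped and coloured by role, with 95% intervals; open circles did not pass the threshold. Most points sit a little to the left of 0, while Eno2 (3.39), Hk1 (1.71) and Pdk2 (1.61) lie far to the right and Aldoc (-4.38) far to the left.

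Of the 4 transport genes 2 fell, 1 rose and 1 was not tested. Slc16a1, which encodes the proton-coupled lactate and pyruvate transporter MCT1, stood at 70.7, 71.7 and 69.8 CPM in the libraries labelled STAT6 and at 129, 127 and 132 CPM in Mock. Every library labelled STAT6 was well under every Mock library, with a mean 1.83-fold lower (log2 fold change -0.87, SE 0.04, adjusted p = 3.7e-21). Slc2a1, the basal glucose transporter GLUT1, was at 27.0, 23.7 and 23.8 CPM against 37.5, 44.1 and 43.1 CPM. It too was without overlap, 1.67-fold lower (log2 fold change -0.74, SE 0.06, adjusted p = 2.25e-11). Slc2a3, the high-affinity glucose transporter GLUT3, was slightly higher, at 37.8, 40.1 and 36.9 against 33.9, 33.8 and 34.8 CPM (log2 fold change 0.16, SE 0.05, adjusted p = 0.00584); scaled to library totals alone the value was 0.09 and no longer passed (adjusted p = 0.134). Slc16a3, the lactate exporter MCT4 of strongly glycolytic cells, was near the limit of detection with 10 counts summed over the STAT6-labelled group and 42 over Mock, and was not tested.

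Hexokinase, which traps glucose as glucose 6-phosphate, had isozyme genes that moved apart. Hk1, the broadly expressed form that binds the outer mitochondrial membrane, was at 534, 553 and 557 CPM in the libraries labelled STAT6 and at 164, 165 and 175 CPM in Mock, 3.27-fold higher (log2 fold change 1.71, SE 0.03, adjusted p = 9.58e-32). The libraries of each group lay within a narrow band and far from the other group. Hk2, the insulin- and hypoxia-responsive form, was at 66.1, 67.7 and 67.6 against 70.3, 81.9 and 77.1 CPM, a small fall (log2 fold change -0.19, SE 0.05, adjusted p = 0.000429). An opposite-strand transcript, Hk1os, had 113 and 33 counts over the groups against 34470 and 12946 for Hk1. The strand setting is not known, and how reads from overlapping stretches were assigned was not tested.

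The genes around Hk1 were mostly higher as well. With genes placed by name in the human order of GRCh38.p14, which need not be the mouse order, the 20 tested genes nearest to Hk1, 10 on each side, held 16 that were higher, 2 that were lower and 2 not past the threshold. Their median log2 fold change was 0.48 and their range -0.43 to 3.52. The window counts given here stand beside 35.8% higher and 36.8% lower over all genes tested. The nearest tested genes are named by their place after the values were seen. On one side they were Supv3l1 (0.34), Vps26a (0.70) and Kifbp (1.12). On the other side they were Tacr2 (3.52), Tspan15 (1.87), Fam241b (2.46) and Aifm2 (1.36). Hk1, at 1.71, lay above the window median and below Tacr2, Tspan15 and Fam241b. Whether Hk1 moved alone or with its neighbourhood was not tested. The window around Pfkl held 18 higher and 2 lower of 20 (median 0.69). Around the other 6 genes past 1.5-fold, windows of 20 held 10 higher and 5 lower for Eno2 (median 0.16), 6 and 12 for Pdk2 (-0.21), 6 and 12 for Slc16a1 (-0.16), 6 and 11 for Slc2a1 (-0.28), 8 and 5 for Pfkfb4 (0.11) and 4 and 10 for Aldoc (-0.28). Some windows ran against their gene, such as those of Pdp1 (3 higher, 15 lower) and Gapdh (13 higher, 3 lower).

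Gpi1, glucose 6-phosphate isomerase, was at 304 to 316 CPM against 378 to 398 CPM (log2 fold change -0.31). Phosphofructokinase, the committed step, is a tetramer of 3 kinds of subunit, and their genes parted. Pfkl, the liver form, rose from 29.9, 29.3 and 32.3 CPM in Mock to 44.5, 41.9 and 40.6 CPM (log2 fold change 0.47, SE 0.05, adjusted p = 1.17e-09). Pfkm, the muscle form, fell from 32.6, 33.1 and 32.2 to 23.2, 26.5 and 23.4 CPM (-0.42, SE 0.06, adjusted p = 8.27e-08). Pfkp, the platelet form, fell from 104, 104 and 112 to 90.2, 94.4 and 94.9 CPM (-0.20, SE 0.04, adjusted p = 1.99e-05). None of these 3 overlapped between groups.

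Aldolase and triose phosphate isomerase, which make and interconvert the triose phosphates, fell slightly. Aldoa, the main aldolase of muscle and many other tissues, was at 903 to 914 against 1019.7 to 1074 CPM (log2 fold change -0.20), and Tpi1 at 479 to 500.2 against 557 to 593 CPM (-0.23). Aldoc, the brain-type aldolase, was almost lost. It had 2 counts in each library labelled STAT6 against 57, 30 and 75 in Mock, or 0.0958 ± 0.00855 against 2.07 ± 0.676 CPM (SD, n = 3; log2 fold change -4.38, SE 0.42, adjusted p = 2.48e-11). Because it passed the filter only through its Mock counts, a difference in Aldoc was built into its being tested.

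In the triose phase, the ATP- and NADH-yielding stage of glycolysis, 4 genes fell and 2 rose. Gapdh, often used as a reference transcript, was at 2593, 2555 and 2578 CPM against 2753, 2803 and 2784 CPM, a difference of only -0.11 (SE 0.02, adjusted p = 0.000178) with no overlap. Pgk1, the first ATP-forming kinase, was at 641 to 668 against 747 to 772 CPM (-0.21). Pgam1, the mutase that follows it, was higher, at 627 to 648 against 556 to 587 CPM (0.16, SE 0.03, adjusted p = 9.34e-06). Pkm, the pyruvate kinase of most tissues, was at 925, 927 and 934 against 1213, 1209.9 and 1241 CPM (-0.40, SE 0.03, adjusted p = 1.28e-15). These genes have many processed pseudogenes, so the assignment of their reads is uncertain.

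Enolase showed the largest rise among the 40. Eno2, the isozyme typical of neurons and neuroendocrine cells, went from 3.17, 2.41 and 2.45 CPM in Mock to 27.0, 25.9 and 30.6 CPM, 10.4-fold higher (log2 fold change 3.39, SE 0.10, adjusted p = 6.29e-26). The lowest library labelled STAT6 was above the highest Mock library by several fold. The ubiquitous Eno1 moved the other way, at 1549, 1518 and 1542 against 1917, 1837 and 1953 CPM (-0.31, SE 0.03, adjusted p = 1.95e-12). Eno1b, a near-identical copy of Eno1, held 1819 and 2621 counts over the groups against 96788 and 146491 for Eno1, and adding these to Eno1 left its fall in place.

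Both lactate dehydrogenase subunits fell. Ldha, the subunit that favours reduction of pyruvate, was at 343, 336 and 348 against 516, 494 and 540.2 CPM, 1.51-fold lower (log2 fold change -0.59, SE 0.03, adjusted p = 2.26e-18). Ldhb, the subunit that favours lactate oxidation, was at 88.1, 84.7 and 88.9 against 116, 109 and 118 CPM (-0.39, SE 0.04, adjusted p = 4.68e-11). As a share of all counts the pair took 0.0418% ± 0.000709 in the libraries labelled STAT6 and 0.0647% ± 0.00304 in Mock (SD, n = 3).

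**Figure D2:**
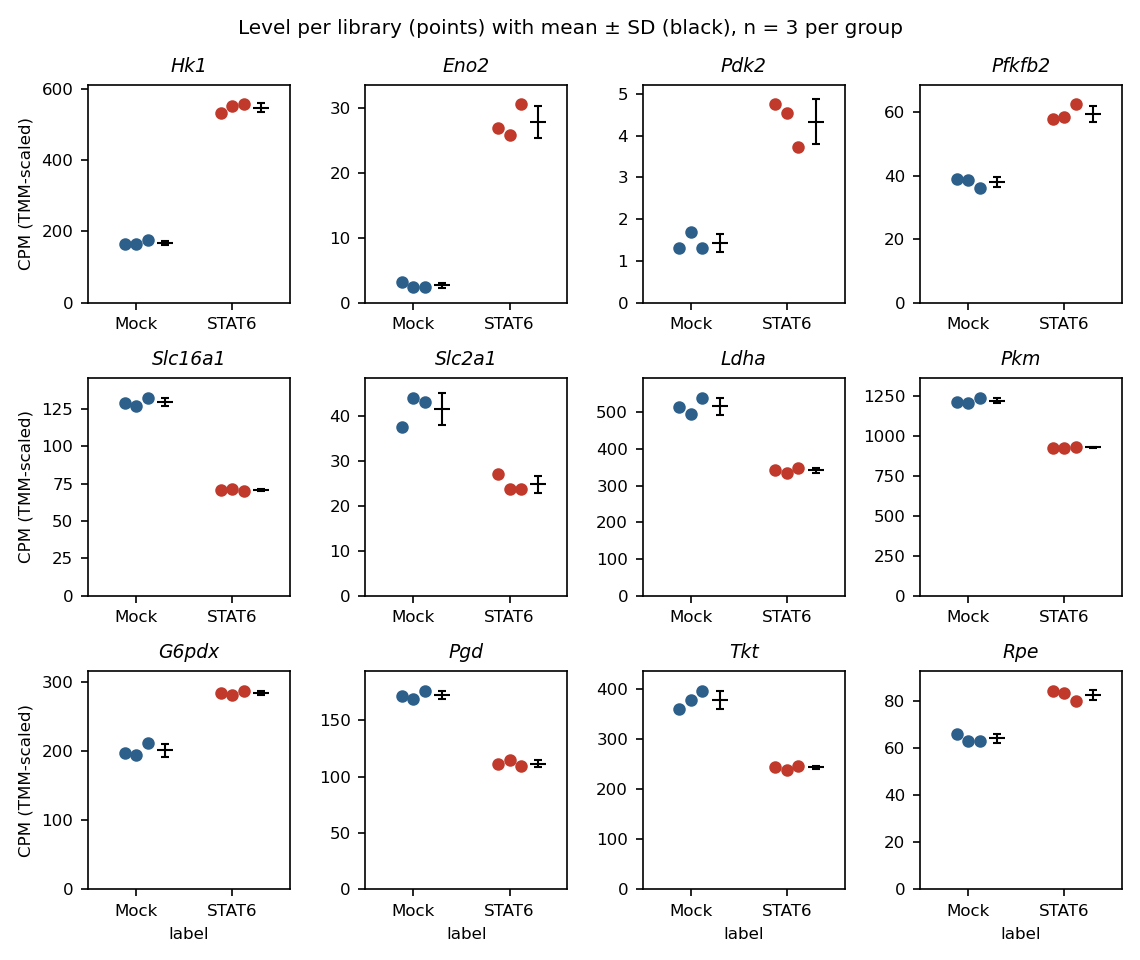
CPM per library (vertical axis from 0; each panel has its own scale) of 12 genes in the libraries labelled Mock and STAT6, with mean ± SD in black (n = 3). No panel has overlapping groups: Hk1, Eno2, Pdk2, Pfkfb2, G6pdx and Rpe are higher under the STAT6 label, and Slc16a1, Slc2a1, Ldha, Pkm, Pgd and Tkt lower.

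For 8 pairs of genes with a shared reaction or cargo, the log2 ratio of their counts was compared between groups; a change in such a ratio does not depend on gene length or on library scaling. The Hk1 to Hk2 ratio was 3.01, 3.03 and 3.04 in the libraries labelled STAT6 and 1.22, 1.01 and 1.18 in Mock, a difference of 1.89. Eno1 to Eno2 went from 9.47 ± 0.212 to 5.79 ± 0.118 (SD, n = 3), a difference of -3.68. Aldoa to Aldoc differed by 3.87 in the opposite sense, on few Aldoc counts. Slc2a1 to Slc2a3 differed by -0.90, Pfkl to Pfkp by 0.67, Pfkm to Pfkp by -0.22 and Ldha to Ldhb by -0.20. In these 7 ratios the groups did not overlap, and each gave the smallest p that 20 assignments of the libraries allow (exact permutation test, 2-sided, p = 0.1; adjusted over the 8 ratios, 0.114), so the design cannot take them past the threshold. Slc16a1 to Slc16a3 overlapped between groups (difference 0.95, exact permutation p = 0.3).

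**Figure D3:**
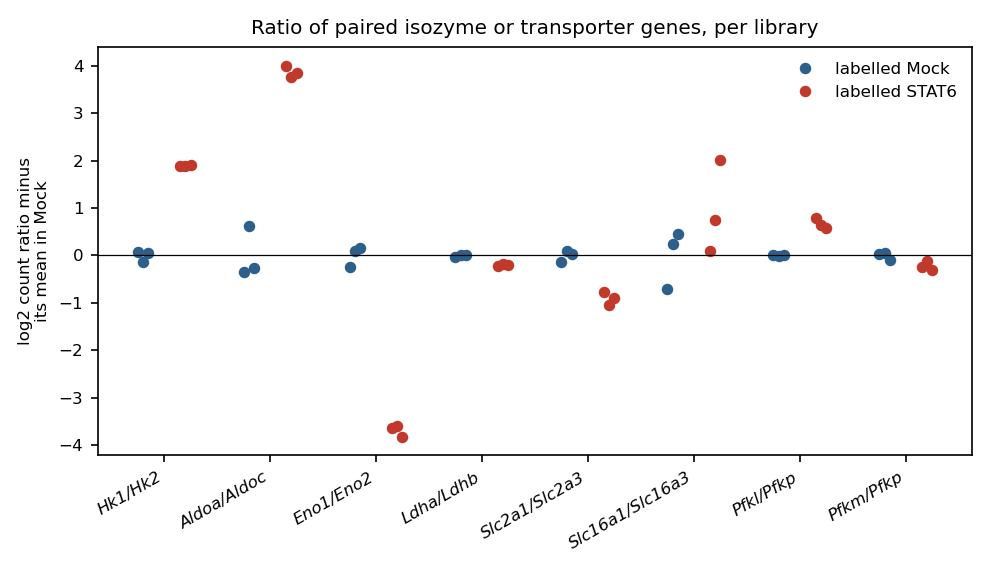
Log2 ratio of the counts of paired genes in each library, drawn relative to the mean of the Mock libraries (vertical axis; 0 is the Mock mean), with 3 libraries per group. The Hk1/Hk2, Aldoa/Aldoc and Pfkl/Pfkp points labelled STAT6 lie above all Mock points, those of Eno1/Eno2, Slc2a1/Slc2a3, Ldha/Ldhb and Pfkm/Pfkp below, and those of Slc16a1/Slc16a3 overlap.

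The 4 PFKFB enzymes make and remove fructose 2,6-bisphosphate, the main allosteric activator of phosphofructokinase, and differ in the balance of the 2 activities. Pfkfb2, the heart form, rose from 39.1, 38.7 and 36.0 to 57.7, 58.4 and 62.5 CPM, 1.57-fold (log2 fold change 0.65, SE 0.05, adjusted p = 2.07e-14). Pfkfb3, in which kinase activity dominates, was higher by less, at 23.9, 23.2 and 23.5 against 19.1, 20.3 and 19.3 CPM (0.27, SE 0.06, adjusted p = 0.000265). Pfkfb4 was lower without overlap, at 2.07, 2.73 and 2.79 against 5.86, 4.87 and 4.87 CPM (-1.04, SE 0.16, adjusted p = 4.06e-07). Pfkfb1, at 1.86 to 2.45 against 2.07 to 2.65 CPM, overlapped between groups, and its interval of -0.45 to 0.36 leaves room for a change of either sign (adjusted p = 0.843).

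At the pyruvate gate the catalytic subunits moved little and the kinases diverged. Pdha1, the E1 alpha subunit that the kinases phosphorylate, was slightly lower at 136, 141 and 135 against 159.9, 156 and 154 CPM (log2 fold change -0.18, SE 0.03, adjusted p = 1.2e-05). Pdhb, the E1 beta subunit, was slightly higher (0.13, adjusted p = 0.0049), but not with library totals alone (0.05, adjusted p = 0.237). Dlat, the E2 core, was at 129 to 137 against 131 to 134 CPM, with an interval for the log2 fold change of -0.06 to 0.08.

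Of the inhibitory kinases, Pdk2 rose about as much as Hk1, from 1.30, 1.68 and 1.31 to 4.75, 4.53 and 3.72 CPM (3.03-fold; log2 fold change 1.61, SE 0.19, adjusted p = 1.54e-09). Pdk3 fell, at 46.0, 43.3 and 43.2 against 55.7, 59.7 and 57.9 CPM (-0.39, SE 0.05, adjusted p = 3.34e-09). Pdk1, a hypoxia-responsive kinase, overlapped between groups at 5.78 to 6.03 against 5.25 to 6.28 CPM (interval -0.25 to 0.24). Pdk4, the starvation-induced kinase, had 2 counts summed over all 6 libraries and was not tested. The activating phosphatase Pdp1 was at 7.08, 8.55 and 6.32 against 5.43, 5.86 and 6.05 CPM (0.33, SE 0.12, adjusted p = 0.0132). That call was lost with library totals alone (adjusted p = 0.0505) and without STAT6 replicate 2 (0.135) or Mock replicate 1 (0.0502).

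The pentose phosphate pathway split within its oxidative arm. G6pdx, the rate-limiting glucose 6-phosphate dehydrogenase, was at 284, 282 and 287 against 196, 194 and 212 CPM, 1.42-fold higher (log2 fold change 0.50, SE 0.03, adjusted p = 1.84e-15). Pgd, the second NADPH-forming dehydrogenase of the same arm, was at 111, 115 and 109 against 172, 169 and 176 CPM, 1.54-fold lower (-0.63, SE 0.03, adjusted p = 7.38e-18). Neither gene overlapped between groups. Pgls, the lactonase between them, was at 18.3, 18.3 and 19.6 against 18.4, 15.2 and 16.7 CPM. Its groups overlapped and its call (0.16, SE 0.07, adjusted p = 0.0467) was lost under 11 of 16 other settings, such as DESeq2 (adjusted p = 0.121) and leaving out STAT6 replicate 1 (0.0553), 2 (0.0616) or 3 (0.178), or Mock replicate 2 (0.262) or 3 (0.104).

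The non-oxidative arm, which exchanges sugar phosphates with glycolysis, was mostly lower. Tkt, transketolase, was at 245, 238 and 245 against 359, 378 and 396 CPM, 1.55-fold lower (log2 fold change -0.64, SE 0.03, adjusted p = 1.49e-18). Taldo1, transaldolase, was at 91.0, 91.3 and 90.8 against 118, 114 and 117 CPM (-0.35, SE 0.04, adjusted p = 8.97e-11). Rpe, the epimerase that supplies transketolase, was the exception, at 84.1, 83.0 and 79.9 against 66.0, 63.0 and 62.7 CPM (0.37, SE 0.04, adjusted p = 5.51e-10). Rpia, the isomerase that forms ribose 5-phosphate, overlapped between groups, at 28.3, 26.0 and 25.6 against 30.3, 27.5 and 30.9 CPM (-0.15, SE 0.06, adjusted p = 0.0231). It missed the threshold in DESeq2 (adjusted p = 0.0761) and when any of 4 libraries was left out: STAT6 replicate 2 (0.0902) or 3 (0.0935), Mock replicate 1 (0.0544) or 3 (0.117).

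Other genes of these routes were taken from lists, whose counts stand beside the 72.6% of all genes tested that passed the threshold (35.8% higher, 36.8% lower). Among further isozymes and sugar or lactate transporters, 11 of 26 were tested, 5 rose and 4 fell. Bsg encodes basigin, the chaperone that carries MCT1 to the cell surface, and it rose while Slc16a1 fell. It was at 741, 752 and 770.3 against 318, 321 and 343 CPM, 2.31-fold higher (log2 fold change 1.20, SE 0.03, adjusted p = 8.26e-28). The genes around Bsg in the human order were also higher, 13 of 14 against 1 lower, with a median of 0.95. Slc2a9, a urate and hexose transporter, rose from 2.43, 2.72 and 1.86 to 8.90, 8.40 and 7.89 CPM (1.86, adjusted p = 8.37e-14), and Slc2a8, an intracellular glucose transporter, rose by 0.98. Slc2a4, the insulin-responsive GLUT4, had 5 counts summed over the STAT6-labelled group and 176 over Mock, and passed the filter only through its Mock counts, so that a difference was built into its being tested. Slc2a12 was lower on few counts, with 17, 7 and 11 in the libraries labelled STAT6 against 30, 26 and 33 in Mock. Its log2 fold change was -1.06 (SE 0.31, adjusted p = 0.0029). The libraries labelled STAT6 did not meet the filter by themselves. Slc2a12 was therefore tested only through its Mock counts, which favoured a difference.

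**Figure D4:**
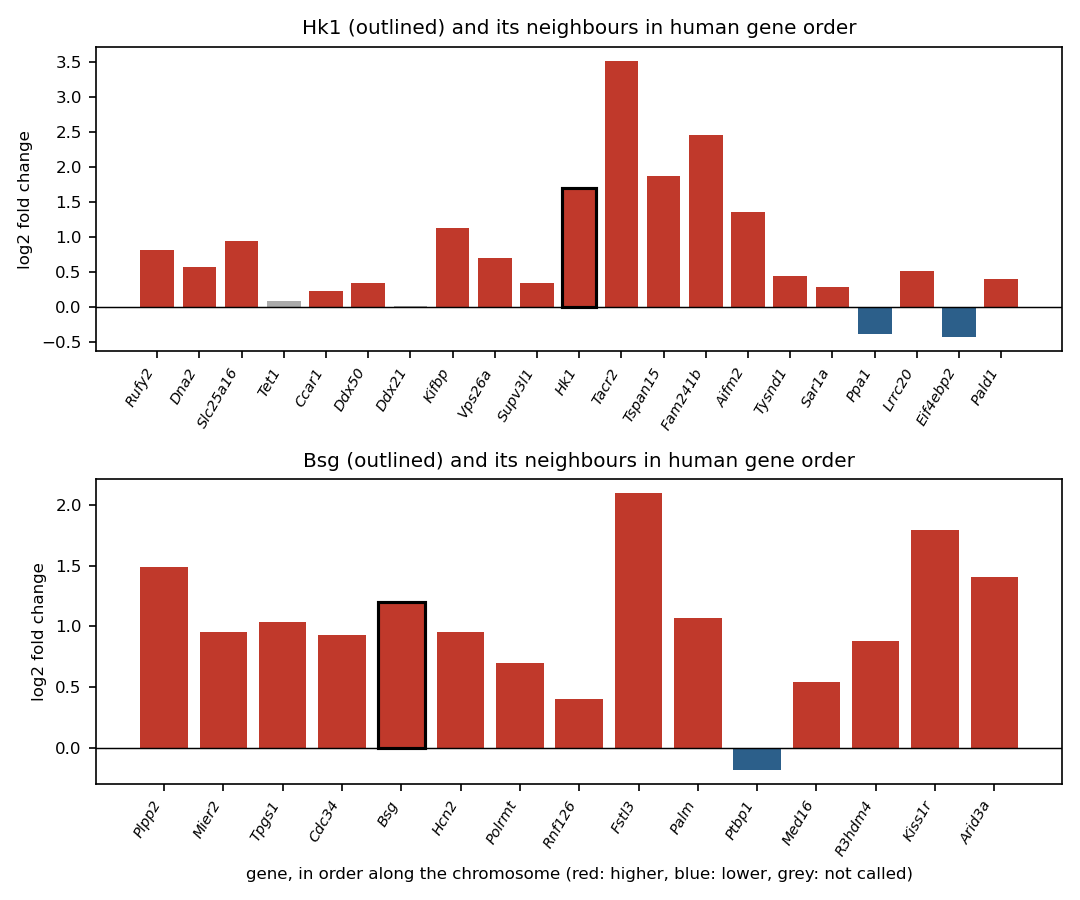
Log2 fold change (vertical axis) of Hk1 and Bsg, outlined, and of the tested genes on either side of each in human gene order, 10 a side where the chromosome allows. Red bars are higher, blue bars lower and grey bars not past the threshold; 16 of 20 neighbours of Hk1 and 13 of 14 neighbours of Bsg are higher.

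For the rest of the pyruvate gate, 2 of 10 tested genes rose and 5 fell, a called share near that of all genes. Pdp2, the gene of the other phosphatase isoform beside Pdp1, fell 2.26-fold, from 33.9, 37.0 and 32.5 to 16.5, 14.3 and 15.0 CPM (log2 fold change -1.17, SE 0.07, adjusted p = 1.72e-17). The 2 subunits of the mitochondrial pyruvate carrier parted, Mpc2 being higher (0.51) and Mpc1, named after its value was seen, lower (-0.28). Pdpr, the regulator of the phosphatase, was higher (0.21), and the E3 subunit Dld (-0.30) and the E3-binding protein Pdhx (-0.38) were lower.

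Of other pentose phosphate and ribose genes 4 of 8 tested rose and 2 fell. The phosphoribosyl pyrophosphate synthetases, which use ribose 5-phosphate, went apart, Prps2 at 0.41 and Prps1 at -0.50. The ribokinase gene Rbks (0.67) and the phosphoglucomutase gene Pgm2 (0.27) were higher, and the deoxyribose-phosphate aldolase gene Dera was lower (-0.45). In the gluconeogenic and glycogen branch 3 of 10 rose and 3 fell. Gyg, the glycogenin primer of glycogen, fell from 230.0, 226 and 224 to 125, 121 and 125 CPM (-0.87, adjusted p = 1.06e-22), and Pgm2l1 (-1.22) and mitochondrial Pck2 (-0.76) also fell, while G6pc3 (0.49) and Ugp2 (0.24) were among those that rose.

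Txnip, a glucose-induced arrestin that promotes internalisation of GLUT1, was 2.35-fold higher, at 62.9, 63.3 and 61.6 against 27.9, 25.5 and 26.5 CPM (log2 fold change 1.23, SE 0.05, adjusted p = 3.37e-22). Mlxip, the glucose-sensing transcription factor MondoA, rose (0.42) and its partner Mlx fell (-0.23). Of 12 hypoxia-induced genes outside glycolysis that were tested, 6 rose, 1 fell and 5 did not pass (median log2 fold change 0.12), where 72.6% of all genes passed. P4ha1 (1.06) and P4ha2 (0.66), prolyl hydroxylases for collagen, and Bnip3l (0.47), a mitophagy receptor, rose, whereas Vegfa, the classical hypoxia-induced angiogenic factor, fell from 12.4, 13.4 and 13.5 to 2.25, 2.73 and 2.25 CPM (-2.45, SE 0.12, adjusted p = 1.38e-19).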

How the data were processed

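The 6 deposited files used each hold a whole-number count per mouse gene symbol. Per the submitters' processing notes the tools were STAR, Salmon, edgeR and FastQC, with the human build GRCh37; the sources used here give no version, strand setting or filter. Groups and replicate numbers come from the sample titles. The members and gene lists were chosen with earlier results of these data known.

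Counts were analysed with edgeR 4.0.16 in R 4.3.3: filterByExpr, TMM factors (0.968 to 1.03), glmQLFit (robust), glmQLFTest with group as the only term, 2-sided, Benjamini-Hochberg adjustment over 12938 genes. The kept genes held 99.9% of counts. CPM are TMM-scaled, SE is the log2 fold change over the root of F, intervals are 95%, and folds are ratios of mean CPM. Ratios of paired genes used a pseudocount of 0.5 counts.

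All 40 members could be named; from other lists, up to 3 called genes a direction with the largest change. Alternatives were RLE, upper-quartile and total scaling, no filter or 1 CPM in 3 libraries, DESeq2 1.42.0, limma-voom 3.58.1, a replicate block, each library left out, adjusted p of 0.01, a test beyond 1.5-fold (glmTreat), near-identical copies added and a ratio pseudocount of 5. The fit was tested on simulated data. Within groups, paired libraries differed by 1.46 to 2.48 times counting noise, so none was a copy. No mouse lengths or sequences were used here, so levels are not compared between genes and no sequence or coordinate is given. Human gene order covered 82.2% of tested genes.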

Additional observations from a re-analysis of the deposited data

How the results depend on the processing

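Of 38 tested members 30 kept direction and call under all 16 settings other than the test beyond 1.5-fold; the other 8 were Slc2a3, Pdhb, Pdp1, Pgls, Rpia and the uncalled Dlat, Pdk1 and Pfkfb1. The test beyond 1.5-fold called 3 higher and 4 lower, by its construction. Scaling to library totals alone moved the members' median to -0.26 and left 9 higher and 22 lower; it shifts the median of all genes to -0.08. Elsewhere counts were 11 to 13 higher and 21 to 23 lower. Without 1 library they were 11 to 12 higher and 21 to 22 lower, with medians of -0.20 to -0.18. Reversals were confined to uncalled genes: Dlat at -0.065 (totals), -0.0065 (upper quartile), -0.0074 (no filter) and -0.014 to 0.035 without 1 library; Pfkfb1 at -0.14 to 0.066 and Pdk1 at -0.089 to 0.037 without 1 library. The cause was not tested.

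Same-numbered libraries deviated together only weakly (correlations of 0.05, 0.10 and 0.03, the highest for each library but Mock replicate 3), so the numbers were not taken as pairs; with the replicate block 13 members were higher and 22 lower, and 9422 genes were called against 9399. The paired differences of the ratios were the same, with an exact sign-flip p of 0.25, the smallest that 3 pairs allow. A ratio pseudocount of 5 took Aldoa to Aldoc from 3.87 to 2.51 and Slc16a1 to Slc16a3 from 0.95 to 0.05; both rest on few counts.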
